A study of Homo sapiens with 6 samples.

Results

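The light response of rods and cones is carried by a small group of membrane proteins, and 8 of their genes are described here across the cells of human retinal organoids: CNGA1, CNGB1, CNGA3, CNGB3, SLC24A1, SLC24A2, KCNV2 and KCNG4. They were chosen by name and are 8 of the 36601 genes in the deposited tables, and all 8 were found. In the dark, cyclic GMP holds open a cation channel of the outer segment, and light closes it by lowering cyclic GMP. That channel is built from CNGA1 and CNGB1 in rods and from CNGA3 and CNGB3 in cones. Calcium that enters through it leaves by exchangers that trade sodium for calcium and potassium, SLC24A1 in rods and SLC24A2 in cones. Potassium leaves through Kv2 channels of the inner segment, and KCNV2 (Kv8.2) and KCNG4 (Kv6.4) are silent subunits, which form no channel alone but join Kv2 subunits and alter their gating. Loss of CNGA3 or CNGB3 causes achromatopsia in people, loss of CNGA1 or CNGB1 retinitis pigmentosa, loss of SLC24A1 night blindness, and loss of KCNV2 a cone dystrophy.

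The transplanted group is 3 samples of organoid fragments that had been placed under the retina of normal dogs and were collected after 3 days. The cultured group is 3 samples of fragments from the same organoid batches, triturated alike and kept in a dish for the same 3 days. All organoids came from WA09, a human embryonic stem cell line, carried a CRX-tdTomato reporter (CRX is a transcription factor of photoreceptors and their precursors) and were 113 to 126 days old. The 3 independent experiments are called Sets, and each gave 1 sample of either group (n = 3 per group). All cells come from 1 cell line, the fragments were grafted into eyes with intact photoreceptors, and the number of dogs is not given in the sources used here.

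Single-cell RNA was counted as unique molecular identifiers (UMIs, 1 per captured transcript). A cell was called a rod with at least 3 UMIs of NRL, the transcription factor of the rod fate, and more of NRL than of PDE6H, a subunit of the cone phosphodiesterase. It was called a cone with at least 3 UMIs of PDE6H and more of PDE6H than of NRL. Of 39580 cells kept, 9101 were rods, 5201 were cones and 25278 were other cells. Counts were summed per class and sample, which gave 18 sums, and are given as CPM, the counts scaled to a common total of UMIs per sum.

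Libraries held 6850189 to 108222149 UMIs. The transplanted sample of Set 2 was the smallest, with 690 kept cells, of which 170 were rods and 34 were cones. Set 1 was processed with another version of the counting software than Sets 2 and 3, so version and Set cannot be told apart. No 2 libraries shared more than 1.01% of the barcodes of the smaller one. CRX was higher in rods than in other cells by a log2 difference of 1.73 ± 0.14 (SE) and higher in cones by 1.91 ± 0.14. The sum of 8 rod markers other than NRL was 381 to 915 CPM in transplanted rods and 568 to 656 CPM in cultured rods, against 129 to 321 CPM in transplanted cones and 137 to 156 CPM in cultured cones. The sum of 9 cone markers other than PDE6H was 251 to 573 CPM in transplanted rods and 417 to 1017 CPM in cultured rods, against 490 to 932 CPM in transplanted cones and 804 to 1605 CPM in cultured cones. Rod markers were higher in rods in ranges that do not overlap those of cones, while the ranges of the cone markers in rods and cones overlap and the cones were higher within 6 of 6 samples. In the cones of a sample 1 or 2 of the 9 cone markers were at 0. The visual pigment gene OPN1LW was at 0 in cones of every sample, but not in cultured rods of Set 2. A count of 0 does not show that a gene is silent, and the other cone markers make up the sums above.

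The promoters of 3 of the genes are shown because these genes carry the comparisons that follow: CNGB1, the rod channel subunit that was higher in transplanted cones, and KCNV2 and KCNG4, the potassium channel subunits, whose transplanted levels lay above (KCNV2) and below (KCNG4) the cultured ones in every Set. Each sequence is the 250 bases before the RefSeq start of the gene (GRCh38.p14), read along the gene's strand. CNGB1 lies on the minus strand (chr16:57971129-57971378), as does KCNG4 (chr16:84240013-84240262), and KCNV2 lies on the plus strand (chr9:2717260-2717509). Capitals mark TAATCC, the core that CRX-type homeodomains bind, and TGCTGA, the half-site of the factor family of NRL, each searched on both strands (their reverse complements read GGATTA and TCAGCA).
CNGB1: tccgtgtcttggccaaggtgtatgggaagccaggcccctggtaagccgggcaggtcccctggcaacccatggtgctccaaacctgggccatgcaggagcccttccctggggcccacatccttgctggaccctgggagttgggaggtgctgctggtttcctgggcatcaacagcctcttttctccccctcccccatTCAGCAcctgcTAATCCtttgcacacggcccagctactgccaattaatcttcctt
KCNV2: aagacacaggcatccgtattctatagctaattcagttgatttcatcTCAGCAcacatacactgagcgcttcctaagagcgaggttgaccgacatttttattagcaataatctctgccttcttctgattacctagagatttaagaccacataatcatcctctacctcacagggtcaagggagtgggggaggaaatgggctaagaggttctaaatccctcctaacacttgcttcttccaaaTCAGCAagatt
KCNG4: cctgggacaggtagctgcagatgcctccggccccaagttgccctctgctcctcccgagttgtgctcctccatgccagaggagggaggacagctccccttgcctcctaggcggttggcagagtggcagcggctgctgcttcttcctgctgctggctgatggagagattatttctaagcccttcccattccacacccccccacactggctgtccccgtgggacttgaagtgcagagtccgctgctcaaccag
The CNGB1 window held 1 TAATCC, whose first base lies 44 bases before the start, and 1 TGCTGA in reverse complement, 55 bases before it. The KCNV2 window held 2 TGCTGA in reverse complement, 204 and 11 bases before the start, and no TAATCC. The KCNG4 window held neither string of letters. Of 35116 promoter windows of the same length, 5.62% held TAATCC and 14.02% held TGCTGA, so a match is a common event and says nothing of binding.

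Positions are from GENCODE release 29 (GRCh38), which holds 34616 of the 36601 gene identifiers of the deposited tables. CNGA1 lies on chromosome 4 (47935977 to 48016672, minus strand), CNGB1 on chromosome 16 (57882340 to 57971116, minus) and CNGA3 on chromosome 2 (98346155 to 98398601, plus). SLC24A1 lies on chromosome 15 (65611366 to 65660995, plus), SLC24A2 on chromosome 9 (19507452 to 19786928, minus), KCNV2 on chromosome 9 (2717502 to 2730037, plus) and KCNG4 on chromosome 16 (84218667 to 84239750, minus). CNGA1, CNGA3, CNGB3, SLC24A1 and KCNV2 overlap a gene on the other strand that the tables also list, and whether the counting used strand is not given in the sources used here. The counts are given per gene and not per transcript, so the short GARP transcripts that CNGB1 is also known to make cannot be told apart from the channel subunit.

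The rod channel subunits CNGA1 and CNGB1 were highest in rods in every sample. CNGA1, the rod subunit that binds cyclic GMP and can form the pore by itself, stood at 2.69, 25.6 and 32.3 CPM in transplanted rods of Sets 1, 2 and 3, and at 3.92, 20.7 and 20.8 CPM in cultured rods. In cones it stood at 0.653, 20.3 and 12.0 CPM in transplanted samples and at 0.824, 6.15 and 5.94 CPM in cultured samples. In other cells it was 0.159, 6.75 and 7.47 CPM in transplanted samples and 0.215, 2.16 and 9.30 CPM in cultured samples. Set 1 was low in every class, and rods were above cones and above other cells in 6 of 6 samples. CNGA1 was higher in rods than in other cells by a log2 difference of 2.73 ± 0.29 (SE, adjusted p = 8.49e-06) and higher than in cones by 1.53 ± 0.29 (adjusted p = 0.00652).

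CNGB1, the modulatory subunit of the rod channel, stood at 23.3, 123 and 168 CPM in transplanted rods and at 27.5, 73.0 and 155 CPM in cultured rods. In cones it stood at 22.6, 57.2 and 83.5 CPM in transplanted samples and at 10.7, 20.7 and 50.8 CPM in cultured samples. Rods exceeded cones in 6 of 6 samples, in 1 of them by 1.03-fold only, the transplanted sample of Set 1. The difference between rods and other cells was 2.49 ± 0.28 on the log2 scale (adjusted p = 4.42e-05). That between rods and cones, 1.08 ± 0.27, missed the threshold with an adjusted p of 0.0529. Other cells held 3.08, 69.3 and 54.8 CPM in transplanted samples and 2.02, 6.84 and 41.4 CPM in cultured samples, so in the small transplanted library of Set 2 they stood above the cones.

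The cone channel subunits were higher in cones than in rods in every sample. CNGA3, the cone subunit that forms the pore, stood at 10.2, 19.1 and 27.1 CPM in transplanted rods and at 9.32, 14.6 and 19.3 CPM in cultured rods. In cones it stood at 19.1, 36.9 and 33.8 CPM in transplanted samples and at 23.3, 20.2 and 31.7 CPM in cultured samples. The rod values overlapped those of cones across samples, but within each sample cones were higher. CNGA3 was lower in rods than in cones by a log2 difference of -0.79 ± 0.19 (adjusted p = 0.0334), and higher than in other cells both in rods (1.36 ± 0.20, adjusted p = 0.000169) and in cones (2.15 ± 0.21, adjusted p = 2.11e-06). The difference between rods and cones was not called without Set 1 (-0.56, adjusted p = 0.0931), Set 2 (-0.90, adjusted p = 0.110) or Set 3 (-0.91, adjusted p = 0.170). It was also lost with no TMM scaling (adjusted p = 0.101), with equal cells (adjusted p = 0.0804) and with other cells limited to those without NRL, PDE6H or CRX (adjusted p = 0.218).

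CNGB3, the modulatory cone subunit, stood at 1.30, 7.65 and 14.7 CPM in transplanted rods and at 0.610, 8.98 and 23.8 CPM in cultured rods. Cones held 1.52, 49.8 and 42.5 CPM in transplanted samples and 6.78, 26.1 and 101 CPM in cultured samples, above the rods in 6 of 6 samples. The log2 difference of rods from cones was -1.88 ± 0.27 (adjusted p = 0.00116). Rods did not differ detectably from other cells, which held 1.96, 9.21 and 18.6 CPM in transplanted samples and 1.01, 9.43 and 22.8 CPM in cultured samples (-0.09 ± 0.27, adjusted p = 0.835).

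**Figure D1:**
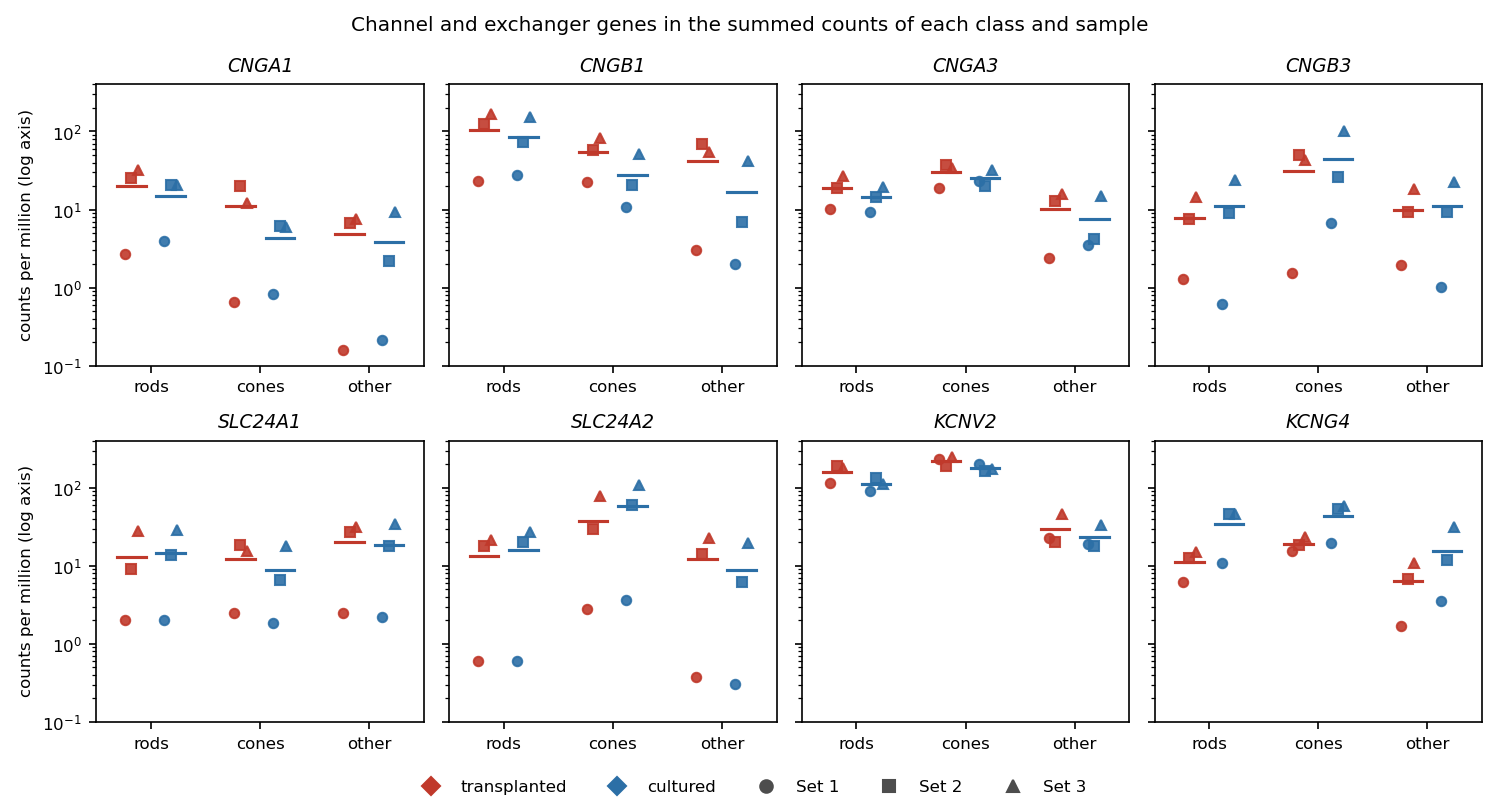
Each point is the CPM of a gene (log axis) in the summed rods, cones or other cells of 1 sample, transplanted in red to the left and cultured in blue to the right, with the Set given by the symbol and the mean of 3 samples by a bar. For CNGA1, SLC24A1 and SLC24A2 the Set 1 samples lie lowest in each class, and SLC24A1 shows no step between rods and other cells.

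The exchangers showed a cone-type pattern for SLC24A2 and no rod pattern for SLC24A1. SLC24A2 (NCKX2), the cone exchanger, stood at 0.607, 17.7 and 21.7 CPM in transplanted rods and at 0.610, 20.4 and 26.7 CPM in cultured rods. Cones held 2.83, 29.5 and 79.1 CPM in transplanted samples and 3.66, 59.7 and 109 CPM in cultured samples. Every sample had more in cones than in rods, and the log2 difference of rods from cones was -1.77 ± 0.20 (adjusted p = 0.000249). Against other cells it was higher in cones by 2.67 ± 0.21 (adjusted p = 2.91e-07) and in rods by 0.90 ± 0.21 (adjusted p = 0.00432).

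SLC24A1 (NCKX1), the exchanger of the rod outer segment, stood at 1.99, 9.09 and 27.9 CPM in transplanted rods and at 2.004, 13.6 and 28.6 CPM in cultured rods. Cones held 2.50, 18.4 and 15.4 CPM in transplanted samples and 1.83, 6.62 and 17.8 CPM in cultured samples. Other cells held 2.49, 27.0 and 31.7 CPM in transplanted samples and 2.21, 17.8 and 34.8 CPM in cultured samples. Rods were below other cells in 6 of 6 samples, at 0.336 to 0.908 of their level, and the fitted difference of -0.25 ± 0.17 on the log2 scale did not pass the test (adjusted p = 0.280). Cones were lower than other cells by a log2 difference of -0.65 ± 0.19 (adjusted p = 0.0168), and the difference of rods from cones was 0.39 ± 0.19 (adjusted p = 0.413).

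The potassium channel subunits were higher in rods and in cones than in other cells in every sample. KCNV2 stood at 115, 190 and 180 CPM in transplanted rods and at 90.9, 131 and 112 CPM in cultured rods. Cones held 231, 188 and 251 CPM in transplanted samples and 204, 165 and 173 CPM in cultured samples. Other cells held 22.9, 20.3 and 45.6 CPM in transplanted samples and 19.0, 18.04 and 33.0 CPM in cultured samples. Neither class overlapped other cells, and the log2 difference from other cells was 3.14 ± 0.20 in cones (adjusted p = 6.77e-08) and 2.54 ± 0.20 in rods (adjusted p = 8.01e-07). Rods were below cones in 5 of 6 samples, and the difference of -0.60 ± 0.18 missed the threshold (adjusted p = 0.105).

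The share of cells with at least 1 KCNV2 UMI gave the same order after each cell was thinned to 2000 UMIs (cells below that depth were left out). It was 23.0% ± 1.80 in transplanted rods and 19.7% ± 4.68 in cultured rods (SD, n = 3 each). In cones it was 35.3% ± 4.77 in transplanted samples and 33.4% ± 3.07 in cultured samples. In other cells without any UMI of NRL, PDE6H or CRX it was 2.35% ± 2.49 in transplanted samples and 1.56% ± 0.746 in cultured samples. Whether those UMIs are free RNA or transcripts of the cells themselves was not tested. Unthinned shares were 48.6% and 41.2% in transplanted and cultured rods and 71.2% and 69.2% in transplanted and cultured cones. In other cells without those markers they were 4.97% in transplanted and 2.43% in cultured samples.

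KCNG4 stood at 6.24, 12.7 and 15.0 CPM in transplanted rods and at 10.8, 46.2 and 46.8 CPM in cultured rods. Cones held 15.5, 18.4 and 23.7 CPM in transplanted samples and 19.7, 53.5 and 58.0 CPM in cultured samples. Rods were below cones in 6 of 6 samples, with a log2 difference of rods from cones of -0.72 ± 0.21 that did not pass the test (adjusted p = 0.0785). Other cells held 1.70, 6.75 and 10.8 CPM in transplanted samples and 3.53, 12.0 and 31.5 CPM in cultured samples. Both photoreceptor classes exceeded them in every sample, cones by 2.07 ± 0.22 (adjusted p = 5.55e-06) and rods by 1.35 ± 0.21 (adjusted p = 0.000302).

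In all, 6 of the 8 genes were higher in rods than in other cells and 0 were lower, where 31.4% of 21822 genes were called in either direction and 13.0% were called higher. In cones 7 of 8 were higher and 1 was lower, where 34.8% of genes were called, 14.7% higher and 20.1% lower. Between rods and cones 1 gene was higher in rods (CNGA1) and 3 were lower (CNGA3, CNGB3 and SLC24A2), where 3.31% of genes were called, 1.01% higher and 2.31% lower in rods. In the fit of 18 sums that gives these values, the sample was a term, so each difference is within samples. The calls between rods and cones rested on Set 3: without it edgeR called 0 genes and 0 of the 8 (1358 genes and 7 of the 8, all but SLC24A1, at an unadjusted p under 0.05), with CNGA1 at 1.52 (adjusted p = 0.0911) and SLC24A2 at -1.57 (adjusted p = 0.0782). DESeq2 on all 3 Sets called 7 of the 8, all but SLC24A1, where 1026 of 18435 genes were called, 305 higher and 721 lower in rods.

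Many cells carried both marker genes, and the differences between rods and cones were larger without them. PDE6H was detected in 48.1%, 37.1% and 53.3% of transplanted rods of Sets 1, 2 and 3, and in 33.2%, 41.5% and 25.7% of cultured rods. NRL was detected in 77.5%, 73.5% and 86.4% of transplanted cones and in 50.2%, 77.7% and 57.9% of cultured cones. Rods with PDE6H were deeper, with median UMIs of 6769, 19452 and 9652 in transplanted and 4769, 15902 and 9375 in cultured samples, against 2819, 5009 and 4239 in transplanted and 2718, 4150 and 3116 in cultured rods without it. Depth therefore moved with this split, and its part in the values was not tested.

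When the comparison was repeated on rods without any PDE6H UMI and cones without any NRL UMI, a choice made after the data were seen, all 8 genes were called between rods and cones, 3 higher and 5 lower in rods, where 9.28% of 18827 genes were called, 5.23% higher and 4.05% lower. The transplanted cones of Set 2 then numbered 9 cells and were left out, so 17 sums were fitted and 5 samples held both classes. SLC24A2 was lower in these rods by a log2 difference of -3.85 ± 0.31 (adjusted p = 2.59e-08) and CNGA1 was higher by 3.92 ± 0.64 (adjusted p = 0.000465). CNGB1 was higher by 1.88 ± 0.40 (adjusted p = 0.0154) and SLC24A1 by 1.32 ± 0.38 (adjusted p = 0.0295). KCNG4 was lower by -1.65 ± 0.33 (adjusted p = 0.00285), KCNV2 by -1.31 ± 0.29 (adjusted p = 0.0175), CNGA3 by -1.64 ± 0.28 (adjusted p = 0.000465) and CNGB3 by -2.46 ± 0.40 (adjusted p = 0.000238). All 8 signs were those found in all rods and cones. These cells are a part of those, chosen by the same marker genes, so the match of signs is no independent support. SLC24A1 was higher in these rods in 4 of 5 samples and lower in 1.

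**Figure D2:**
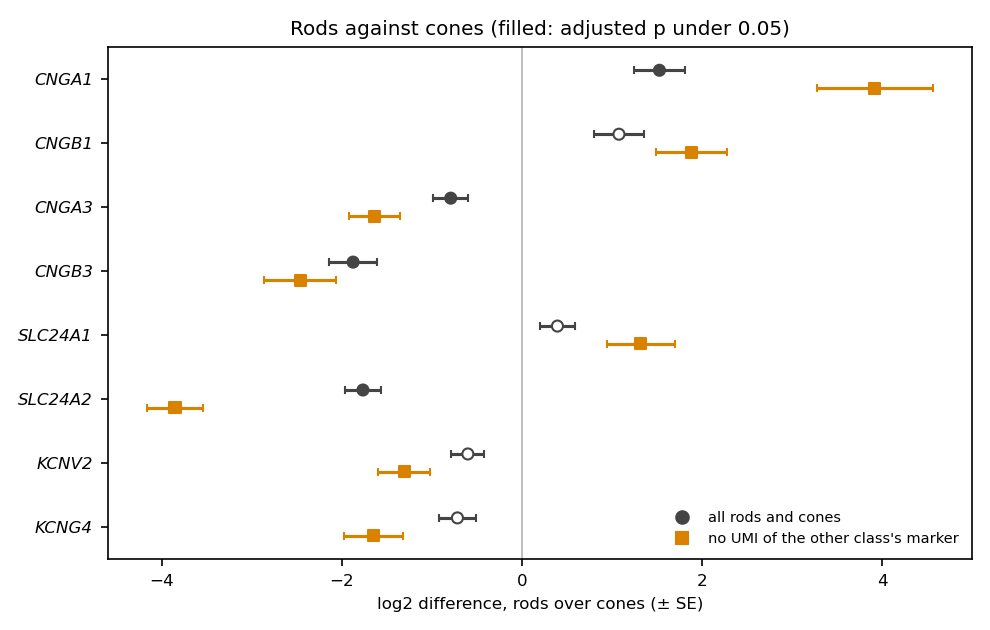
Log2 difference of rods over cones for each gene, with its standard error, in all rods and cones (circles) and in rods and cones without any UMI of the marker of the other class (squares); filled symbols have an adjusted p under 0.05. All 8 squares lie farther from 0 than the circle of the same gene.

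In SLC24A2 the split of the rods showed as follows. Rods without PDE6H held 0.268, 2.93 and 5.73 CPM in transplanted samples and 0, 3.69 and 12.9 CPM in cultured samples. Rods with PDE6H held 0.769, 20.6 and 25.2 CPM in transplanted samples and 1.27, 25.9 and 39.9 CPM in cultured samples. In each of 6 samples the rods with PDE6H were higher. Against other cells, rods without PDE6H were lower in SLC24A2 by a log2 difference of -1.23 ± 0.25 (adjusted p = 0.00102), where all rods had been higher. In that comparison of rods without PDE6H 4 genes were higher (CNGA1, CNGB1, CNGA3 and KCNV2) and 2 were lower (CNGB3 and SLC24A2), where 22.7% of genes were called, 8.20% higher and 14.5% lower.

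CNGA1 in cones without NRL showed the mirror image. They held 0 and 3.08 CPM in the transplanted samples of Sets 1 and 3 and 0.261, 1.60 and 4.91 CPM in cultured samples. The 0 in Set 1 allows up to 2.45 CPM, the level of 3 UMIs. Against other cells CNGA1 was then not detectably different in cones (-0.89 ± 0.91, adjusted p = 0.543), where all cones had been higher by 1.21 ± 0.32. Of the others 5 were higher in cones without NRL (CNGA3, CNGB3, SLC24A2, KCNV2 and KCNG4) and SLC24A1 was lower, where 20.8% of genes were called, 7.37% higher and 13.5% lower. KCNV2 in rods without PDE6H stood at 47.7, 96.6 and 114 CPM in transplanted samples and at 52.6, 114 and 96.6 CPM in cultured samples, still above other cells (1.73 ± 0.26, adjusted p = 0.000866).

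**Figure D3:**
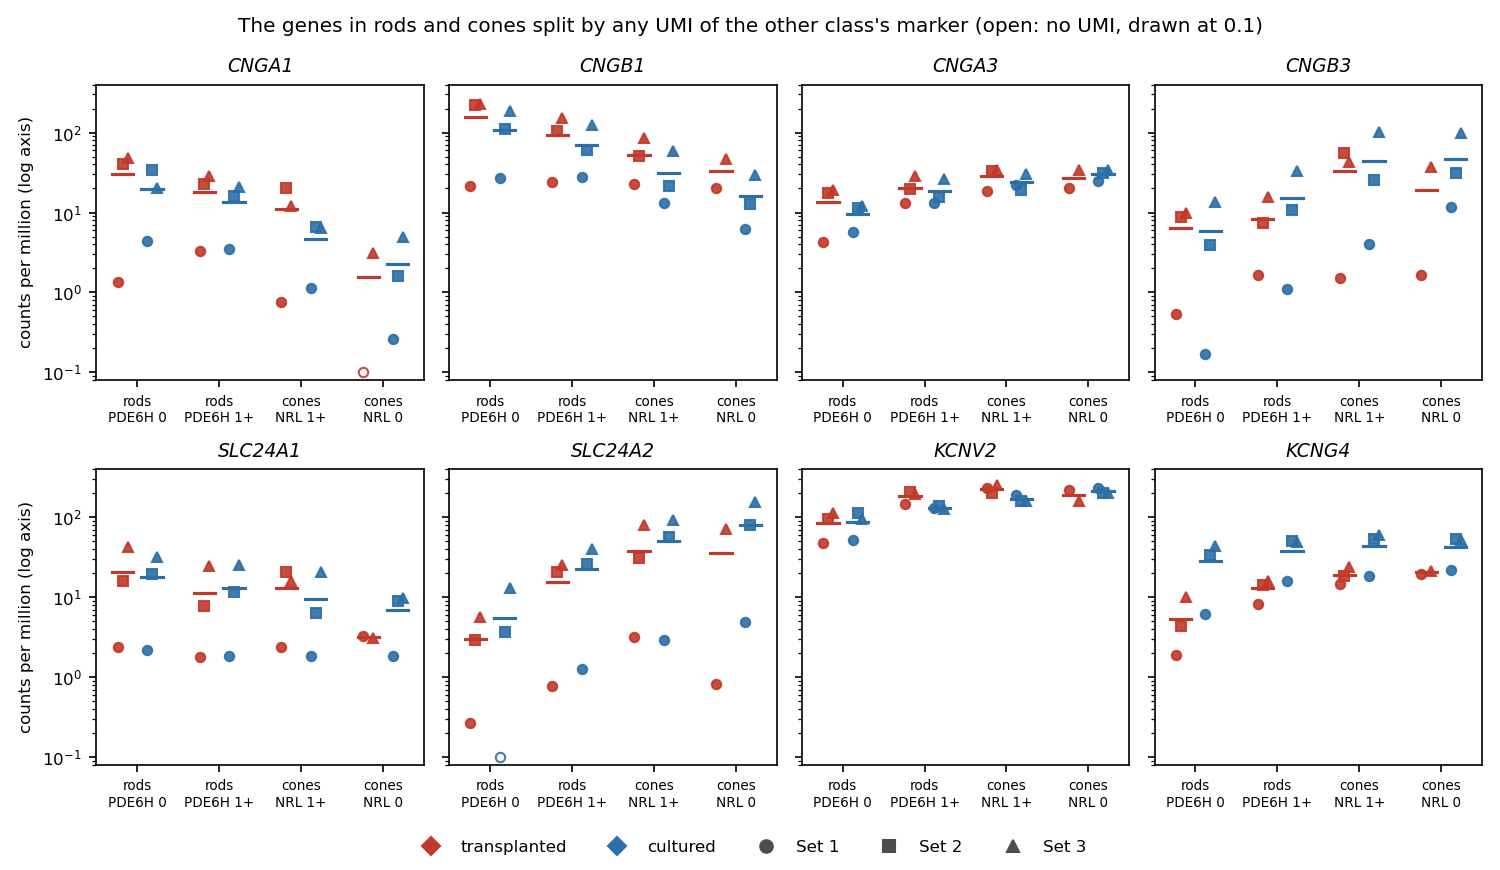
CPM (log axis) in rods without and with a PDE6H UMI and in cones with and without an NRL UMI, transplanted in red to the left and cultured in blue to the right, symbols for the Sets, bars for the mean of the samples with 20 cells or more. SLC24A2 lies lowest in rods without PDE6H, at 0 to 12.9 CPM, and CNGA1 lowest in cones without NRL, at 0 to 4.91 CPM.

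Transplantation was set against culture within each Set, to ask whether the grafted photoreceptors held other levels of these genes after 3 days. In rods 1 of 8 genes changed, KCNG4, which was lower, where 4.58% of 17981 genes were called and 2.29% were lower. In cones 1 of 8 changed, CNGB1, which was higher, where 0.545% of 17614 genes were called and 0.233% were higher. In other cells 0 of 8 were called with edgeR, where 0.246% of 20305 genes were called, 0.138% higher and 0.108% lower. At an unadjusted p under 0.05 edgeR had 2 of the 8 in other cells, CNGB1 and KCNG4, where 2040 of the 20305 genes passed. DESeq2 called 0 of 8 in other cells, where 204 of 17931 genes were called. In other cells without any UMI of NRL, PDE6H or CRX, CNGB1 was called with edgeR (2.09 ± 0.43, adjusted p = 0.0403). In all other cells it was called without Set 3 (1.98, adjusted p = 2.53e-05) but not without Set 2 (0.59, adjusted p = 0.475) or Set 1 (1.85, adjusted p = 0.845).

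KCNG4 in rods fell to 11.3 ± 4.55 CPM in transplanted samples, against 34.6 ± 20.6 CPM in cultured samples (SD, n = 3 each). Within Sets the transplanted rods held 0.578, 0.274 and 0.322 of the cultured level, so all 3 Sets were lower, although the ranges of the transplanted and cultured samples overlapped. The log2 change was -1.27 ± 0.22 (SE) with an adjusted p of 0.00395. Without Set 3 the change was -1.26 with an adjusted p of 0.0534, without Set 2, which holds the small transplanted library, -1.04 (adjusted p = 0.0149), and without Set 1 -1.50 (adjusted p = 0.000359). In rods without PDE6H KCNG4 stood at 1.88, 4.39 and 9.96 CPM in transplanted samples and at 6.203, 33.8 and 44.1 CPM in cultured samples. That change, -2.06 ± 0.33, passed the test as well (adjusted p = 0.0172), where 0.927% of 14987 genes were called and 0.634% were lower. In cones without NRL 7 of the 8 could be tested (not CNGA1) and edgeR called 0 of them, where 0.836% of 12079 genes were called. Of the 7, 3 had an unadjusted p under 0.05 with edgeR, CNGB1, CNGB3 and SLC24A2, where 1176 of the 12079 genes did.

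In the other classes KCNG4 had the same sign in every Set. In cones the change was -0.90 ± 0.26 (adjusted p = 0.178), and in other cells it was -1.15 ± 0.29 (adjusted p = 0.190). The difference of the change in rods from that in cones was -0.38 ± 0.41 on the log2 scale (adjusted p = 1), so a change particular to rods was not shown. In the fit of response differences 0 of 21822 genes were called between rods and cones, between rods and other cells or between cones and other cells with edgeR (317, 1077 and 978 at an unadjusted p under 0.05; DESeq2 called 7, 0 and 3).

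CNGB1 in cones rose to 54.4 ± 30.5 CPM in transplanted samples, against 27.4 ± 20.9 CPM in cultured samples (SD, n = 3 each). Within Sets the transplanted cones held 2.11, 2.76 and 1.64 times the cultured level, the value of Set 2 resting on 31 UMIs in 34 transplanted cones. The log2 change was 1.13 ± 0.23 with an adjusted p of 0.0472. The call was lost without Set 1 (1.15, adjusted p = 0.320) and without Set 2 (1.03, adjusted p = 0.259), and in cones without NRL it was 1.26 ± 0.54 (adjusted p = 0.385). It was also lost under the stricter cell filter (adjusted p = 0.0556), the class rules of 5 UMIs (adjusted p = 0.0592) and 2 UMIs (adjusted p = 0.0942), equal cells (0.76, adjusted p = 0.486) and no block. The share of cones with an NRL UMI was also higher in the transplanted samples of Sets 1 and 3, and lower in that of Set 2. The part of this share in the CNGB1 values was not tested. In rods the change of CNGB1 was 0.39 ± 0.25 (adjusted p = 0.415), with 2 of 3 Sets higher. In other cells it was 1.46 ± 0.47 (adjusted p = 0.327) and 3 of 3 Sets were higher, by 10.1-fold in Set 2.

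KCNV2 was higher in transplanted samples in 3 of 3 Sets in each of the 3 classes, by 1.26-fold to 1.60-fold in rods, 1.13-fold to 1.45-fold in cones and 1.12-fold to 1.38-fold in other cells. None of these passed the test: the log2 change was 0.68 ± 0.26 in rods (adjusted p = 0.145), 0.36 ± 0.31 in cones (adjusted p = 0.714) and 0.33 ± 0.24 in other cells (adjusted p = 0.691). In rods without PDE6H the change was 0.04 ± 0.22 (adjusted p = 0.963). The share of rods with PDE6H, in which KCNV2 is higher, was larger in the transplanted samples of Sets 1 and 3 and smaller in that of Set 2. Rods with PDE6H were also deeper, and the part of this share or of depth in the KCNV2 values was not tested.

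The other genes had no called change. CNGA1 in cones had a log2 change of 1.04 ± 0.48 (adjusted p = 0.433), with Set 1 lower and Sets 2 and 3 higher. CNGA3 in rods was higher in 3 of 3 Sets, by 1.10-fold to 1.41-fold (0.51 ± 0.22, adjusted p = 0.216). SLC24A2 in cones was lower in 3 of 3 Sets, at 0.494 to 0.773 of the cultured level (-0.51 ± 0.27, adjusted p = 0.500). In rods SLC24A2 stood at 0.812 to 0.995 of the cultured level, and the 0.995 of Set 1 is almost no difference. The fitted change in rods was -0.00 ± 0.25. CNGB3 in cones differed by -0.72 ± 0.46 (adjusted p = 0.617) and had Set 2 higher and Sets 1 and 3 lower, and SLC24A1 in rods differed by -0.03 ± 0.26.

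**Figure D4:**
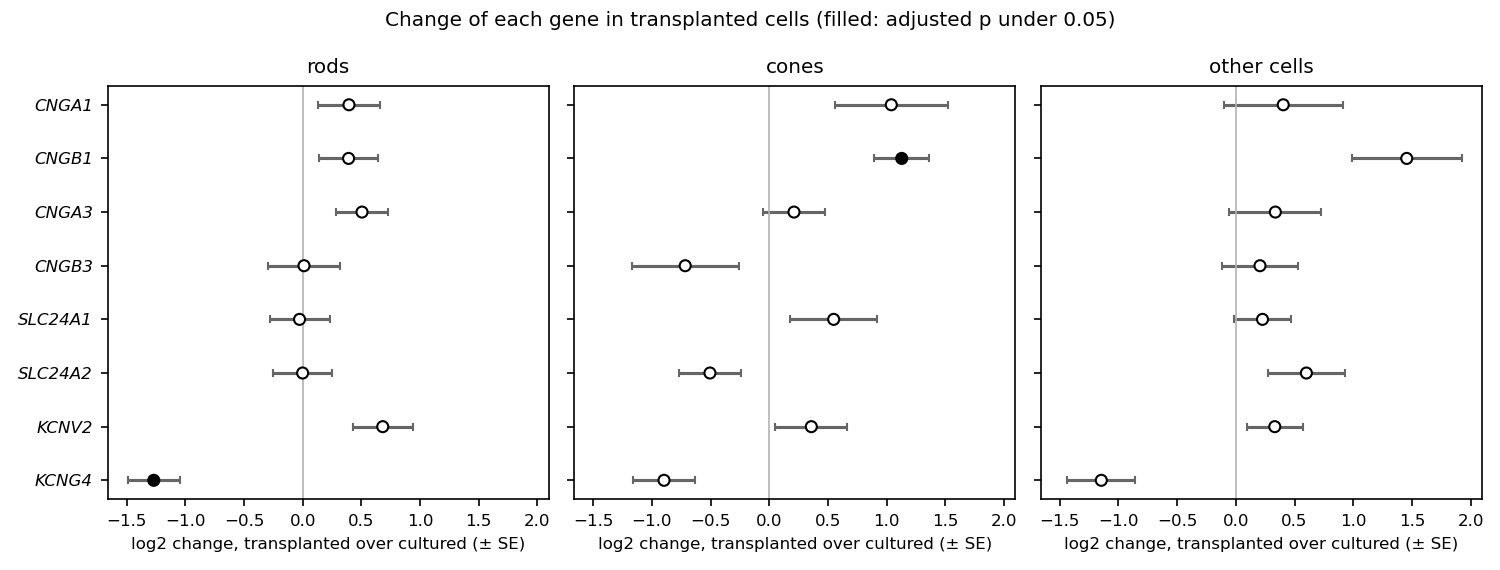
Log2 change of each gene in transplanted over cultured samples, with its standard error, for rods, cones and other cells (n = 3 Sets); filled symbols have an adjusted p under 0.05. KCNG4 lies left of 0 in all 3 classes, from -1.27 to -0.90, and only KCNG4 in rods and CNGB1 in cones are filled.

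Other measures of the same sums also moved with transplantation. The median share of mitochondrial UMIs was 4.36%, 3.39% and 3.26% in transplanted rods and 1.72%, 2.89% and 1.12% in cultured rods. In cones it was 4.35%, 2.73% and 3.35% in transplanted samples and 1.61%, 2.17% and 1.66% in cultured samples. Transplanted cones were also deeper in each Set, with median UMIs of 5166, 10952 and 12862.5, against 3301.5, 10398 and 8131.5 in cultured cones. The sum of the 9 cone markers was lower in transplanted samples of each Set, at 251, 558 and 573 CPM in transplanted rods and 417, 764 and 1017 CPM in cultured rods. In cones it was 490, 684 and 932 CPM in transplanted samples and 804, 1046 and 1605 CPM in cultured samples. The summed level of 8 markers of dividing progenitors was 82.0 to 156 CPM in transplanted rods and 255 to 833 CPM in cultured rods, with none of the markers at 0. It was 46.1 to 117 CPM in transplanted cones and 125 to 505 CPM in cultured cones. The 8 markers of Müller glia summed to 316 to 755 CPM in transplanted rods and 618 to 871 CPM in cultured rods. The make-up of other cells differed as well: 8 myeloid markers summed to 23.7 to 59.5 CPM in transplanted samples and 2.15 to 11.1 CPM in cultured samples. The 5 red cell markers summed to 0.265 to 161 CPM in transplanted and 0.429 to 3.30 CPM in cultured other cells. The part of all these measures in the changes of KCNG4 and CNGB1 was not tested. A filter meant to remove dog cells, which left out cells with a share of clone-named human transcripts below the 1st percentile of the cultured cells of their class and Set, gave KCNG4 in rods a change of -1.27 (adjusted p = 4.49e-05) and CNGB1 in cones 1.07 (adjusted p = 0.0157). In the transplanted sample of Set 3 that filter kept only 218 of 396 cones and 967 of 1269 rods, and the clone-named share of UMIs there was 2.25% in transplanted cones and 3.85% in cultured cones.

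Outside rods and cones, 2 of the genes had a level as high as or higher than in photoreceptors. Other cells were grouped by at least 3 UMIs over at least 2 markers of a cell type, and only groups of 20 cells or more in a sample are given. CNGB3 stood at 31.4 CPM (17 UMIs in 133 cells) in cells with pigment epithelium markers in the transplanted sample of Set 1. In cultured samples such cells held 24.8 CPM in Set 1 (21 UMIs in 187 cells) and 82.0 CPM in Set 2 (20 UMIs in 38 cells). The cones of the same samples held 1.52 CPM in the transplanted sample of Set 1 and 6.78 and 26.1 CPM in the cultured samples of Sets 1 and 2, so in all 3 samples the pigment epithelium group was higher. Its partner CNGA3 stood at 1.85 CPM in that group in the transplanted sample and at 0 in both cultured samples, where 3 UMIs would be 3.54 and 12.3 CPM. No test was made, since the groups hold few UMIs.

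SLC24A1 was high in cells with horizontal cell markers in Sets 2 and 3. It stood at 59.2 CPM in the transplanted sample of Set 3 (28 UMIs in 67 cells), and at 37.6 and 77.2 CPM in the cultured samples of Sets 2 and 3 (60 UMIs in 339 cells and 25 UMIs in 117 cells). The rods of the same samples held 27.9 CPM in the transplanted sample and 13.6 and 28.6 CPM in the cultured samples. In Set 1 no SLC24A1 UMI was found in horizontal-marker cells, where the limit of 3 UMIs is 76.2 CPM in the transplanted and 25.1 CPM in the cultured sample. Cells with Müller glia markers held 3.28, 31.9 and 34.7 CPM in transplanted samples and 2.75, 15.1 and 30.5 CPM in cultured samples.

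**Figure D5:**
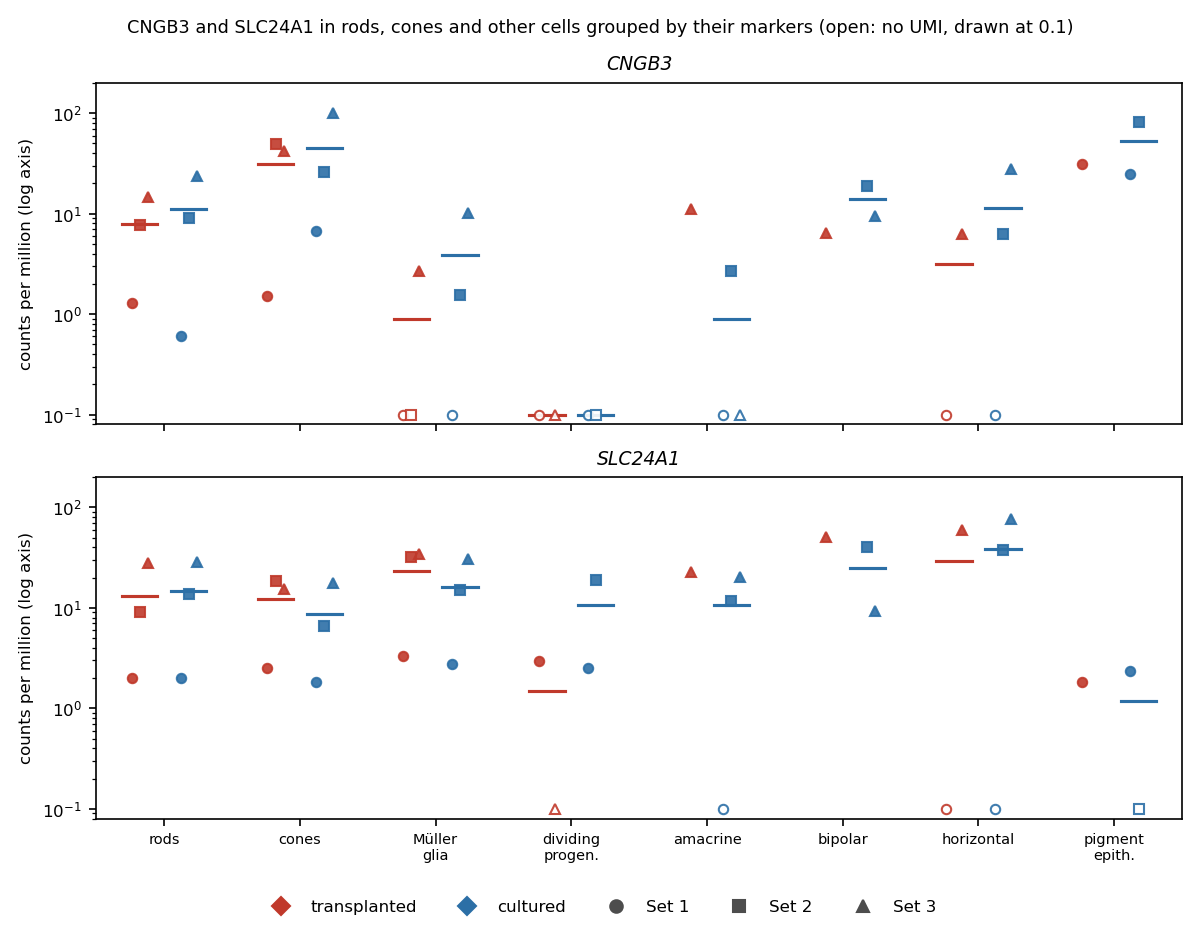
CPM (log axis) of CNGB3 and SLC24A1 in rods, in cones and in other cells grouped by their markers, transplanted in red to the left and cultured in blue to the right, with the mean where 2 or more samples have 20 cells. CNGB3 reaches 24.8 to 82.0 CPM in the pigment epithelium group, and SLC24A1 37.6 to 77.2 CPM in the horizontal group of Sets 2 and 3.

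The relatives and partners of these genes were looked up as a list of 14 channels and exchangers, of which 11 could be tested in rods. In transplanted rods 0 of them were higher and 1 was lower, where 2.29% of all genes were lower, and in transplanted cones 0 were higher and 1 of 9 was lower, where 0.312% of all genes were lower. Both were SLC24A4 (NCKX4), an exchanger that in mice serves cones together with SLC24A2. It stood at 0.780, 7.41 and 16.5 CPM in transplanted rods and at 2.09, 30.4 and 37.9 CPM in cultured rods, lower in every Set (-1.33 ± 0.27, adjusted p = 0.00954). In cones it stood at 3.59, 33.2 and 35.7 CPM in transplanted samples and at 10.3, 64.7 and 146 CPM in cultured samples, again lower in every Set (-1.49 ± 0.25, adjusted p = 0.0214). SLC24A4 was also lower in rods than in cones by a log2 difference of -1.68 ± 0.21 (adjusted p = 0.000359) and higher in cones than in other cells by 2.30 ± 0.21 (adjusted p = 1.19e-06).

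KCNB2, a Kv2 subunit of the kind that KCNV2 and KCNG4 join, was present in the same classes. It stood at 32.9, 362 and 535 CPM in transplanted rods and at 31.8, 636 and 537 CPM in cultured rods, lowest in Set 1 in both groups. KCNB2 was higher in rods than in other cells by 0.81 ± 0.20 (adjusted p = 0.00629) and lower in rods than in cones, with a log2 difference of -0.87 ± 0.20 (adjusted p = 0.0199). KCNG1 and KCNG3, silent subunits of the KCNG4 family, were lower in rods than in other cells (-1.26 ± 0.22, adjusted p = 0.000474, and -1.36 ± 0.32, adjusted p = 0.00501). Over the list, 5 of 11 genes were higher and 3 were lower in rods than in other cells, where 13.0% of all genes were called higher and 18.4% lower.

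The 18 genes of inner segment and synaptic channels and pumps, all tested in rods, gave 0 higher and 1 lower in transplanted rods, where 2.29% of all genes were called in each direction. The gene that fell was CACNA1D, a calcium channel pore subunit (-1.18 ± 0.26, adjusted p = 0.0163). CACNA1F, the calcium channel of the photoreceptor synapse, had a change of 0.72 ± 0.21 (adjusted p = 0.0551). Between rods and cones 1 of the 18 was higher in rods and 2 were lower, where 1.01% of all genes were called higher and 2.31% lower.

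Of 17 rod phototransduction genes 13 were tested in transplanted rods, with 1 higher and 2 lower, where 2.29% of all genes were called in each direction. One of those lower was RGS9, which speeds the shut-off of transducin in both photoreceptor types; it fell in rods (-0.98 ± 0.24, adjusted p = 0.0261) and in cones (-1.59 ± 0.28, adjusted p = 0.0249). The median log2 change of the 13 genes was 0.22, against -0.02 for all genes tested. Of 10 cone phototransduction genes 7 were tested in cones, with 0 higher and 1 lower, where 0.233% of all genes were higher and 0.312% lower, and their median was -0.20, against -0.03 for all genes. In transplanted rods 6 of the 10 were tested, with 1 higher and 1 lower, and their median was 0.69. The medians in rods and in cones cover different sets of genes. In the test of response differences between rods and cones 0 of 8 of these genes were called, where 0 of 21822 genes were called. Their median difference there was 0.27, so an opposite response of rods and cones was not shown. Between rods and cones 14 of the 17 rod genes were tested, with 3 higher and 1 lower in rods and a median log2 difference of 0.26. Of all genes 1.01% were called higher and 2.31% lower there. The gene that was lower in rods was GUCA1B, a calcium sensor of guanylate cyclase (-1.25 ± 0.18, adjusted p = 0.00116).

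The genes whose level was most like that of each member over the 18 sums were named by the highest Pearson correlation of log2(CPM + 1), among 10932 genes with a mean of at least 10 CPM. The 18 points share libraries and Sets, so the values describe these sums only. For CNGB1 the closest were PRPH2, a structural protein of the outer segment rim (0.98), EPB41L2 (0.97) and AKAP7 (0.97). For CNGA3 they were CPLX4, a complexin of the photoreceptor synapse (0.97), RD3, a regulator of retinal guanylate cyclase (0.96), and ACSL6 (0.95). For KCNV2 they were SLC17A7, the vesicular glutamate transporter (0.98), CHRNA3 (0.97) and AL590226.2 (0.96). SLC24A2 and CNGB3 shared MCTP1 and PITPNM2 among their closest genes and had a correlation of 0.94 with each other, which was 0.78 once centred within samples. For SLC24A1 they were ATP8B1 (0.99), CCDC77 (0.98) and NBAT1 (0.98), and those of KCNG4 included SLC2A11 (0.95) and OGFOD1 (0.93). CNGA1 had a mean of 9.88 CPM and fell under the minimum.

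With the values centred within each sample, which removes the differences between Sets, the closest genes changed for most members. CNGB1 kept EPB41L2 and PRPH2, and SLC24A1 kept NBAT1, while neither MCTP1 nor PITPNM2 stayed among the 3 closest to SLC24A2 or CNGB3. KCNG4 then had IMPG1, a protein of the matrix between photoreceptors, NPTX1 and RD3, and KCNV2 had CES2, ENO2 and GNGT2, a subunit of cone transducin. This centring was chosen after the data were seen.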

How the data were processed

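The authors deposited 1 matrix of raw UMI counts per sample, made from 10x Genomics 3′ single-cell libraries with Cell Ranger 6.0.2 (Set 1) and 7.1.0 (Sets 2 and 3) on GRCh38, per the file headers. Whether intronic reads were counted is not given in the sources used here.

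Barcodes below 1000 UMIs or 500 genes, or above 20% mitochondrial UMIs, were left out. Scrublet (in Scanpy 1.11.5, 30 components) called 1 to 3 doublets per library with its automatic threshold, so a fixed share, 0.8% per 1000 cells, of highest score was dropped in its place. Counts were summed per sample and class, and CPM scale each sum to a common total of UMIs. Transplanted and cultured sums were compared with edgeR 4.0.16 (R 4.3.3; quasi-likelihood test, TMM scaling, default filter on low counts, Set as a block). Classes and differences of response were compared in 1 fit of the 18 sums with the sample as a block. P-values were adjusted by Benjamini-Hochberg over all genes tested, with a threshold of 0.05, and edgeR's standard error is the size of the log2 difference divided by the square root of F. Counts were also simulated, with a fixed spread that was not estimated from these data, and only genes above a minimum mean count were changed. The shares recovered need not hold for members with few UMIs. On simulated counts edgeR recovered 39% of 2-fold and 97.0% of 4-fold changes in transplanted rods. In transplanted cones it recovered 17.7% and 92.8%, and in transplanted other cells 29% and 94.9%. Differences of response were recovered less often, at 0% (2-fold) and 29% (4-fold) for rods minus cones. For rods minus other cells it was 1% and 40%, and for cones minus other cells 0% and 39%. The lack of a called difference of response therefore does not show that classes responded alike.

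The Set pairs the samples, since the study's design says that both samples of a Set come from the same organoids. The deviations of same-Set samples from their group means correlated at 0.56 to 0.92 in rods, 0.32 to 0.87 in cones and 0.54 to 0.93 in other cells (Pearson, over genes). The samples of Set 2 did not correlate best with each other: their values of 0.56 in rods, 0.32 in cones and 0.54 in other cells lay below those of Set 2 with Set 3, at 0.57 in rods, 0.42 to 0.44 in cones and 0.58 to 0.69 in other cells.

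Alternatives were a stricter cell filter, no doublet removal, class rules of 5 and 2 UMIs, other cells without NRL, PDE6H or CRX, equal numbers of cells per class, a filter on dog cells, no block, DESeq2 1.42.0, no TMM scaling, no filter on low counts and each Set left out. The classes without any UMI of the other marker and the centred correlations were added after the data were seen. The genes named are the 8 members, the 3 genes most like each, and up to 4 genes of each list with the smallest p in rods or cones. KCNG1 and KCNG3 were named after their values were seen, and some genes under this rule are not reported here. The members and lists were chosen with earlier results of these data known. Promoters are from RefSeq. The samples of a Set are separate preparations, and how many dogs they stand for is not known, so p-values measure the spread between these samples.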

Additional observations from a re-analysis of the deposited data

How the results depend on the processing

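Counts of called genes, and of the 8 members among them, moved with several settings. With no replicate block, calls numbered 0 in transplanted against cultured rods, cones and other cells (members 0 in each), 320 in rods against other cells (members 1), 653 in cones against other cells (members 3) and 1 in rods against cones (members 0). With 1 Set left out, the counts ran from 227 to 835 in transplanted rods (members 0 to 1), 6 to 517 in cones (members 0 to 1) and 1 to 625 in other cells (members 0 to 1). They ran from 2472 to 8084 in rods against other cells (members 5 to 6), 3021 to 7571 in cones against other cells (members 6 to 8) and 0 to 861 in rods against cones (members 0 to 4). Differences of response gave 0 to 12 genes for rods minus other cells and 0 to 27 for cones minus other cells.

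In transplanted rods the filter on dog cells gave 1349 genes and the classes without any UMI of the other marker 139. In transplanted cones the class rule of 2 UMIs gave 20, the filter on dog cells 320, no TMM scaling 246 and no filter on low counts 367. CNGB1, the only member called there, was lost (members 0) under the stricter cell filter, the class rules of 5 and 2 UMIs, equal cells and no UMI of the other marker. In transplanted other cells the count was 158 without cells holding NRL, PDE6H or CRX (members 1), 81 with equal cells, 184 with the filter on dog cells, 204 with DESeq2, 103 with no TMM scaling and 373 with no filter on low counts (members 1).

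Equal cells gave 3102 genes in rods against other cells, 2726 in cones against other cells (members 5) and 402 in rods against cones (members 2). No UMI of the other marker gave 4266, 3924 and 1747 (members 8 between rods and cones), and there SLC24A2 turned lower in rods against other cells (-1.23, called), while CNGA1 in cones against other cells had a negative sign (-0.89) within 1 SE of 0, not called. DESeq2 called 1026 of 18435 genes between rods and cones (members 7). Response differences of rods minus cones gave 5 genes with no UMI of the other marker, 7 with DESeq2 and 1 with no filter on low counts. Those of rods minus other cells gave 1 with no doublet removal and 2 with no filter. Those of cones minus other cells gave 1 with equal cells, 40 with no UMI of the other marker, 3 with DESeq2 and 1 with no filter. The cause was not tested. Depth limits the small transplanted library of Set 2, where a member in cones can rest on 10 UMIs. Low counts were not confined to it: in Set 1 only 0.395% of 1265 transplanted cones held a CNGA1 UMI. Over the 18 sums the lowest count of a member was 3 UMIs.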
